A study of Mus musculus with 18 samples.

Results

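The Toll-like receptor genes Tlr1, Tlr2, Tlr3, Tlr4, Tlr6, Tlr7, Tlr8, Tlr9 and Tlr13, together with Cd14, were followed across 18 mRNA libraries made from the mouse macrophage line RAW264.7. These 10 genes were picked by symbol from a table of 24411 gene symbols, and all 10 were among the 11548 genes tested. Each library came from Kdm7a knockout (KO) cells, made with CRISPR/Cas9 and a guide RNA (gRNA) against Kdm7a, or from control cells, which received a control gRNA and carry the genotype label WT. Kdm7a encodes a histone demethylase, and the series asked how its loss alters macrophage polarization. Both kinds of cell were kept for 48 h under one of 3 conditions. M1 cells received mouse interferon gamma at 2 ng/ml and bacterial lipopolysaccharide (LPS) at 0.1 µg/ml. M2 cells received 3 mouse cytokines, IL-4, IL-13 and IL-10, each at 20 ng/ml, and 2 ng/ml of human TGF-beta 1. M0 cells were not stimulated. The 6 groups, KO M1, control M1, KO M2, control M2, KO M0 and control M0, had 3 libraries each, so every mean ± SD has n = 3. All KO libraries came from 1 named KO line and all control libraries from 1 named control line, so other differences between these lines cannot be told apart from the loss of Kdm7a. Nothing in the labels ties replicates to separate cultures, so the p-values reflect the spread of libraries within groups, and that spread may be purely technical.

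Toll-like receptors are membrane proteins that bind molecules of microbes and signal through the adaptors MyD88 and TRIF to NF-kappaB and interferon regulatory factors. TLR2, which pairs with TLR1 or TLR6 to bind bacterial lipopeptides, and TLR4, which with MD-2 binds LPS, act mainly at the cell surface, where CD14 hands LPS to TLR4 and MD-2. TLR3 (double-stranded RNA), TLR7 and TLR8 (single-stranded RNA), TLR9 (DNA with unmethylated CpG) and TLR13 (a motif of bacterial ribosomal RNA) act in endosomes, and UNC93B1 carries them there. The M1 mixture thus holds the ligand of TLR4 and CD14.

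Values are in TPM, the relative number of transcripts of a gene, scaled to transcript length and to a fixed total per library, so that levels of different genes can be set side by side. Sequencing depth is unknown, since TPM does not keep it. As a check of the labels, Kdm7a stood at 7.49 ± 0.26 TPM in KO M1 cells against 29.7 ± 0.85 TPM in control M1 cells, at 6.80 ± 0.88 against 23.3 ± 1.1 TPM under M2, and at 3.37 ± 0.14 against 11.1 ± 0.17 TPM without stimulation. All 8 macrophage markers examined were at 1 TPM or more in every library, between 27.0 TPM for Adgre1 and 3722 TPM for Lyz2. Of 12 markers of other cell types in the table, 9 stayed under 1 TPM in every library. The neutrophil marker S100a8 was the most abundant of them, at 9.93 to 12.6 TPM in KO M1 and 52.9 to 62.0 TPM in control M1 libraries, and at most 2.33 TPM elsewhere. Summed markers of dendritic cells reached at most 1.16 TPM, in KO M0 cells, and those of fibroblasts at most 1.82 TPM, in KO M1 cells. The remaining receptors of the family were nearly silent: Tlr5, whose protein binds flagellin, reached at most 0.09 TPM, Tlr12 at most 0.03 TPM, and Tlr11 was listed at 0 in every library.

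Sequence upstream of RefSeq starts is shown for the receptor genes with 250-base windows outside the exons of the gene. Of the 10 genes, 7 had an entry among the RefSeq promoters of the GRCm38.p6 build, with 9 windows in all. Tlr4, Tlr7 and Cd14 had none. Of the 9 windows, 3 held no base of an exon of the same gene in the GENCODE annotation. They belong to Tlr6 (its first window, which lies within the annotated span of the gene, between exons), which rose under both stimulations, to Tlr8, which had its highest level under M2, and to Tlr9, which rose most after Tlr3 under M1. Capitals mark matches, on either strand, to 3 motifs: the interferon-stimulated element (GAAA and GAAA parted by 2 bases of any kind), the STAT6 motif (TTC and GAA parted by 4 bases) and the kappaB motif (GGG and TTTCC parted by 2 bases). The first is bound by interferon regulatory factors, the second by STAT6 downstream of IL-4 and IL-13, and the third by NF-kappaB.

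Tlr6, chr5:64959167-64959416, minus strand: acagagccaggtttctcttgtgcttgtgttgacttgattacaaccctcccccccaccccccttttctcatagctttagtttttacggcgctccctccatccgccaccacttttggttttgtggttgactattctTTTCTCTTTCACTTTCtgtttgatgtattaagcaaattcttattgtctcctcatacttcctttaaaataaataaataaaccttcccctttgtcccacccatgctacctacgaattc
Tlr8, chrX:167264330-167264579, minus strand: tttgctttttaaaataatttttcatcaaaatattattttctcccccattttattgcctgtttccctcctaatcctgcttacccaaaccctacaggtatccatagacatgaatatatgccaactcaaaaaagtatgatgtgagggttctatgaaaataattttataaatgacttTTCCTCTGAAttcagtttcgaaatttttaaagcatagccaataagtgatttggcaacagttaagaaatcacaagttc
Tlr9, chr9:106222348-106222597, plus strand: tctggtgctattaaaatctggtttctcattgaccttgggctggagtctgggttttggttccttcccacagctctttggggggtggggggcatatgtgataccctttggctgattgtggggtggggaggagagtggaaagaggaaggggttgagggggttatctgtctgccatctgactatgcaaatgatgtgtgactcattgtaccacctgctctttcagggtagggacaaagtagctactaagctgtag

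The Tlr6 window held a pair of overlapping matches to the interferon-stimulated element, read on the opposite strand, at positions -116 to -107 and -110 to -101 from the start. The Tlr8 window held a STAT6 motif at -77 to -68. No match to the 3 motifs lay in the Tlr9 window. Among the windows that are not printed, the Tlr3 window held a kappaB motif, GGGAGTTTCC, at -211 to -202. Over 32536 promoter windows of the same length, the shares with at least 1 match were 2.98% for the interferon-stimulated element, 5.89% for the STAT6 motif and 1.4% for the kappaB motif. A match describes the letters only and does not show binding.

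Cd14 was the most abundant of the 10 genes in all 6 groups, and the receptor that followed it depended on the condition. Under M1 it was Tlr3, at 132 ± 2.8 TPM in KO and 157 ± 4.2 TPM in control cells. Under M2 Tlr2 led the receptors at 164 ± 5.4 TPM in KO and 163 ± 4.0 TPM in control cells, with Tlr4 next at 156 ± 8.7 and 143 ± 5.9 TPM. The libraries of these 2 genes overlapped in KO M2 cells but not in control M2 cells. Without stimulation Tlr2 led at 215 ± 4.1 TPM in KO and 233 ± 5.2 TPM in control cells, followed by Tlr7 at 99.0 ± 4.9 and 87.9 ± 4.2 TPM. Tlr8 was the lowest in every group. Some neighbours in the order could not be parted, since their libraries overlapped: Tlr13 and Tlr2, and Tlr4 and Tlr6, in control M1 cells, Tlr1 and Tlr6 in both M2 groups, Tlr4 and Tlr13 in control M0 cells, and Tlr9 and Tlr3 in KO M0 cells.

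**Figure D1:**
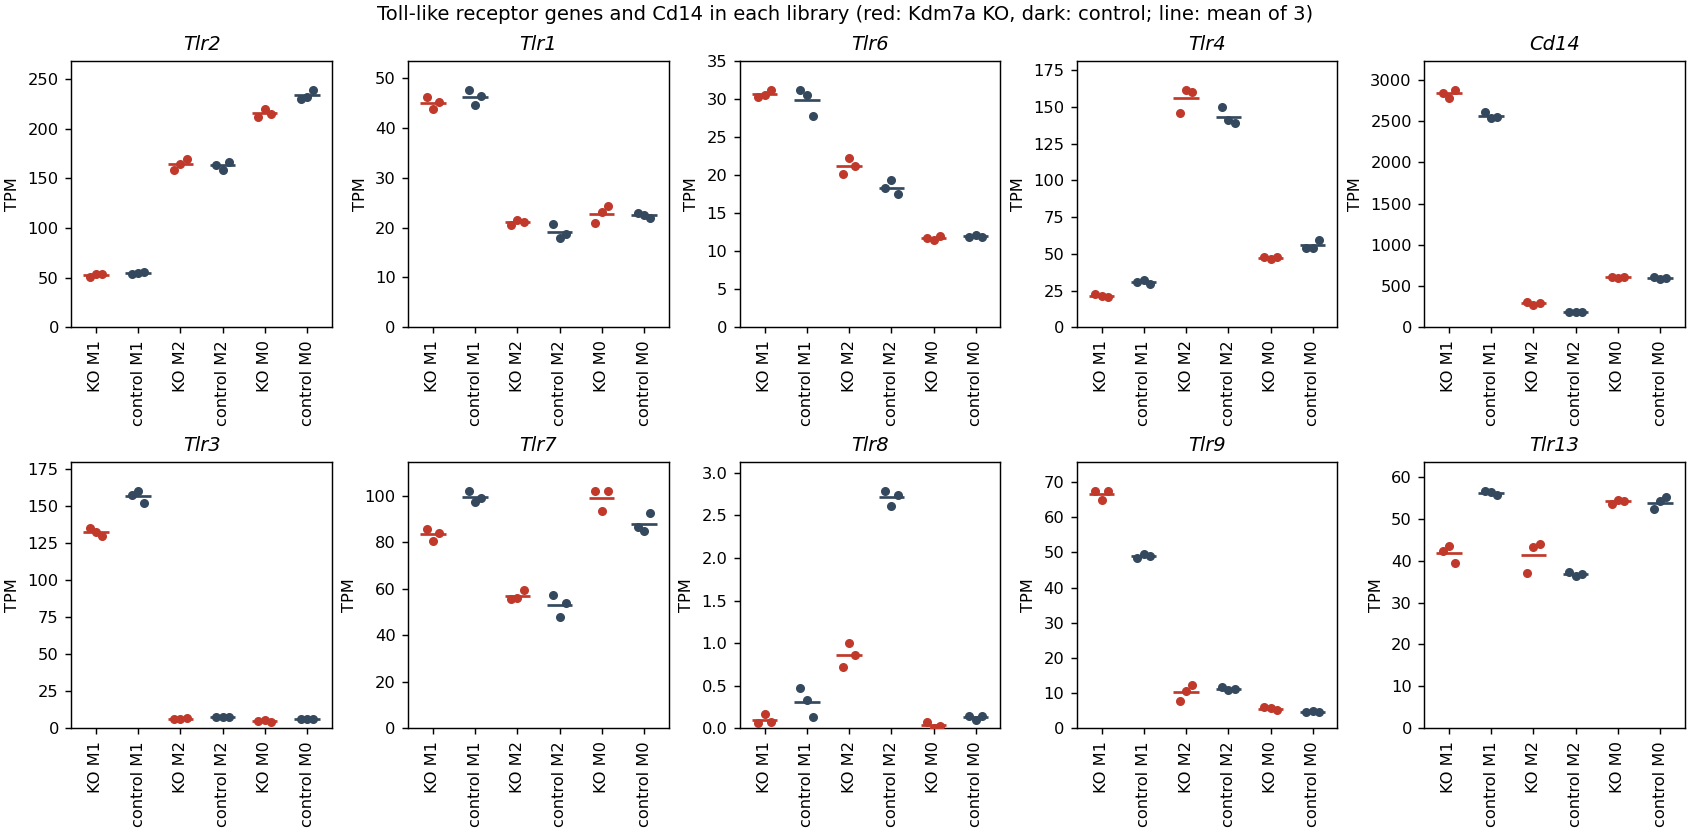
TPM of each gene in every library, with 1 panel per gene, the 6 groups along the horizontal axis, points for the 3 libraries of a group and a line at their mean. Tlr3 and Tlr9 are highest in the M1 groups, Tlr4 in the M2 groups, and Tlr8 stays under 3 TPM, with its highest values (2.61 to 2.79 TPM) in control M2 cells.

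M1 stimulation changed the receptors in opposite directions. Tlr3 and Tlr9 rose more than 10-fold in TPM, Cd14 more than 4-fold, and Tlr1 and Tlr6 rose less, whereas Tlr2 and Tlr4 fell. In KO cells 5 of the 10 genes rose and 4 fell at an adjusted p below 0.05 in limma, a linear model across all genes. Of all genes tested, 90.3% changed in KO cells, 32.0% upward and 58.4% downward. In control cells 6 of the 10 rose and 2 fell, against 89.1% of all genes that changed, 32.2% upward and 56.9% downward, so the count of changed members is near that of all genes. M1 and M0 libraries did not overlap for 90.9% of all genes in KO and 90.0% in control cells. Fold changes below are differences of log2(TPM + 1), which understate the change of low genes, with the standard error and the Benjamini-Hochberg adjusted p from limma. The 10 most abundant genes of a library took 11.6 to 11.7% of the fixed total in KO M1 and 10.9 to 11.0% in control M1 cells, against 6.56 to 7.09% in the other groups, and the median log2 fold change of all genes under M1 was -0.43 in KO and -0.38 in control cells. Scaling by trimmed means (TMM) brought it to 0.06 and 0.07, and scaling by median ratios to 0.01 in both.

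Of the receptor for lipopeptides and its partners, Tlr2 fell about 4-fold in TPM as deposited while the partners rose. Tlr2 had 50.8, 53.3 and 53.2 TPM in KO M1 libraries against 211, 219 and 215 TPM in KO M0 libraries, and 53.7, 55.0 and 56.0 TPM in control M1 libraries against 229, 232 and 239 TPM in control M0 libraries. All M1 libraries lay far below all M0 libraries, with log2 fold changes of -2.02 ± 0.034 in KO cells (adjusted p = 9.87e-22) and -2.07 ± 0.034 in control cells (adjusted p = 7.70e-22). The fall was smaller in some alternatives, down to -1.43 in KO and -1.53 in control cells, and was called in all of them. Tlr1 had 46.3, 43.7 and 45.2 TPM in KO M1 against 20.9, 23.1 and 24.4 TPM in KO M0 libraries, and 47.7, 44.6 and 46.5 TPM in control M1 against 23.0, 22.6 and 22.0 TPM in control M0 libraries. It rose by 0.95 ± 0.057 log2 units in KO and 1.01 ± 0.057 in control cells (adjusted p = 1.74e-12 and 7.65e-13), or by 1.53 in both with TMM scaling. Tlr6 had 30.3, 30.6 and 31.3 TPM in KO M1 against 11.75, 11.5 and 11.98 TPM in KO M0 libraries, and 31.3, 30.6 and 27.8 TPM in control M1 against 11.8, 12.2 and 11.9 TPM in control M0 libraries. That is a rise of 1.32 ± 0.052 log2 units in KO and 1.25 ± 0.052 in control cells (adjusted p = 1.66e-15 and 4.35e-15). Both partners were thus higher in every M1 library than in any M0 library. The ratio of Tlr2 to the sum of Tlr1 and Tlr6 was 0.692 ± 0.028 in KO M1 against 6.24 ± 0.30 in KO M0 cells, and 0.722 ± 0.038 in control M1 against 6.77 ± 0.25 in control M0 cells. Tlr1 and Tlr6 lie 19491 bases apart on chromosome 5 (chr5:64924680-64933600 and chr5:64953092-64970942, minus strand), and 13.6% of the 50-base words of Tlr1 transcripts also occur in Tlr6 (12.3% of those of Tlr6 in Tlr1). How reads from these words were assigned is not given, so the split between the pair is uncertain.

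Tlr4 and Cd14, which serve in recognition of LPS, moved apart. Tlr4 had 22.4, 21.0 and 20.65 TPM in KO M1 against 47.7, 46.5 and 47.8 TPM in KO M0 libraries, and 30.6, 32.0 and 29.55 TPM in control M1 against 53.7, 54.1 and 59.25 TPM in control M0 libraries. It fell by 1.11 log2 units in KO and by 0.84 in control cells (SE 0.049 each, adjusted p = 1.18e-14 and 1.66e-12). With TMM scaling the fall was smaller, at -0.54 in KO and -0.31 in control cells, and still called. Cd14 had 2842, 2781 and 2881 TPM in KO M1 against 611, 597 and 605 TPM in KO M0 libraries, and 2612, 2533 and 2550.1 TPM in control M1 against 608, 586 and 595 TPM in control M0 libraries. Its log2 fold change was 2.23 ± 0.032 in KO and 2.10 ± 0.032 in control cells (adjusted p = 1.08e-22 and 3.10e-22), with no overlap of libraries. For each Tlr4 transcript there were 133 ± 6.4 Cd14 transcripts in KO M1 against 12.8 ± 0.087 in KO M0 cells, and 83.6 ± 3.9 in control M1 against 10.7 ± 0.66 in control M0 cells. In bulk RNA, fewer cells that carry a transcript and less of it per cell cannot be told apart.

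Among the endosomal receptors, Tlr3 and Tlr9 gave the largest responses of all 10 genes. Tlr3, on chromosome 8 (chr8:45395665-45411075, minus strand), had 135, 132 and 129.7 TPM in KO M1 against 4.62, 5.71 and 4.58 TPM in KO M0 libraries, and 157, 160.2 and 152 TPM in control M1 against 6.07, 6.19 and 6.14 TPM in control M0 libraries. The means stood 26.6-fold higher under M1 in KO and 25.5-fold in control cells, with log2 fold changes of 4.49 ± 0.063 and 4.46 ± 0.063 (adjusted p = 7.52e-23 and 1.02e-22). An antisense gene, Gm45542, overlaps exons of Tlr3 and is not among the symbols of the table, and 5.3% of the 50-base words of Tlr3 occur in it. Whether counting used the strand is not stated, so reads of the pair may be mixed. Tlr9 had 67.6, 65.0 and 67.4 TPM in KO M1 against 6.02, 5.78 and 5.10 TPM in KO M0 libraries, and 48.5, 49.6 and 49.0 TPM in control M1 against 4.63, 4.91 and 4.53 TPM in control M0 libraries. This is 11.8-fold in KO and 10.45-fold in control cells on the TPM scale, and 3.35 ± 0.097 and 3.14 ± 0.097 in log2 units (adjusted p = 1.94e-17 and 6.53e-17). M1 and M0 libraries of both genes were far apart.

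Tlr7, Tlr13 and Tlr8 responded weakly, and for Tlr7 and Tlr13 the sign of the response turned with genotype or scaling. Tlr7, at chrX:167303380-167330574 on the minus strand, had 85.55, 80.7 and 84.1 TPM in KO M1 against 102, 93.35 and 102 TPM in KO M0 libraries, and 102, 97.3 and 99.15 TPM in control M1 against 86.45, 84.6 and 92.7 TPM in control M0 libraries. M1 libraries lay below M0 libraries in KO cells and above them in control cells, with log2 fold changes of -0.24 ± 0.055 (adjusted p = 0.000372) and 0.18 ± 0.055 (adjusted p = 0.00525). With TMM scaling both were positive, 0.34 in KO and 0.71 in control cells. Tlr13, at chrX:106143275-106160493 on the plus strand, had 42.4, 43.5 and 39.45 TPM in KO M1 against 53.6, 54.5 and 54.3 TPM in KO M0 libraries, and 56.7, 56.3 and 55.6 TPM in control M1 against 52.2, 54.1 and 55.2 TPM in control M0 libraries. The log2 fold change was -0.37 ± 0.051 in KO cells (adjusted p = 1.15e-06) and 0.06 ± 0.051 in control cells (adjusted p = 0.265). With TMM scaling these became 0.21 and 0.59, both called as higher under M1. Tlr8, 39050 bases from Tlr7 on the X chromosome (chrX:167241123-167264329, minus strand), stayed under 1 TPM, at 0.06, 0.17 and 0.07 TPM in KO M1 against 0.07, 0 and 0.03 TPM in KO M0 libraries, and 0.47, 0.33 and 0.13 TPM in control M1 against 0.15, 0.10 and 0.15 TPM in control M0 libraries. The libraries overlapped in both genotypes and neither response passed the test (adjusted p = 0.403 in KO and 0.0677 in control cells). In control cells it did pass with either scaling (adjusted p = 0.0103 with TMM and 0.013 with median ratios), without the mean-variance trend (0.023), with a pseudocount of 0.1 TPM (0.0481) and without control M1 replicate 3 (0.0103).

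**Figure D2:**
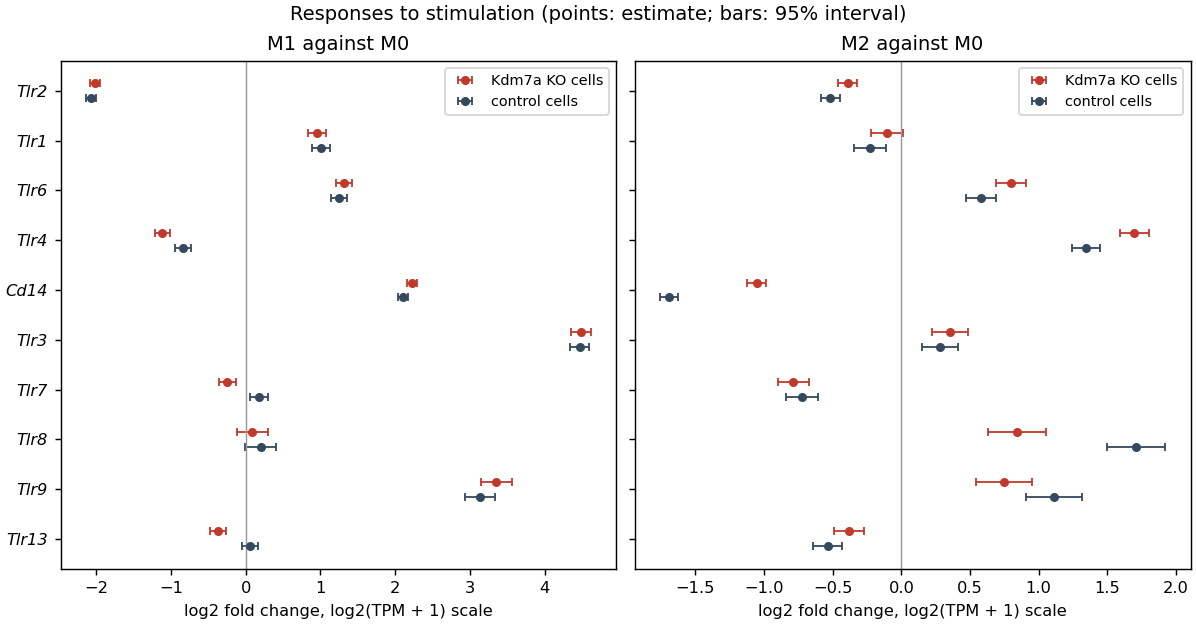
Log2 fold change of each gene under M1 (left) and M2 (right) against M0, in Kdm7a KO and control cells, as points with 95% intervals from limma. Tlr3 and Tlr9 stand farthest right under M1, Tlr2 farthest left, and under M2 the intervals of the genotypes part for Tlr4, Tlr6, Tlr8 and Cd14.

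Under M2 stimulation Tlr4 rose and Cd14 fell, each opposite to its direction under M1, and Tlr8 reached its highest level of the 6 groups. In KO cells 5 genes rose, 4 fell and Tlr1 did not pass the test, against 72.9% of all genes tested that changed, 29.6% upward and 43.2% downward. In control cells 5 rose and 5 fell, against 65.4% of all genes, 28.4% upward and 37.0% downward. M2 and M0 libraries did not overlap for 73.8% of all genes in KO and 69.6% in control cells. The M1 and M2 responses of a genotype share their M0 libraries, so their values are given side by side only.

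For LPS recognition, Tlr4 (chr4:66827551-66846581, plus strand) had 146, 162 and 160.2 TPM in KO M2 and 149.9, 141 and 139 TPM in control M2 libraries, all above every M0 library. It rose by 1.70 ± 0.049 log2 units in KO and 1.35 ± 0.049 in control cells (adjusted p = 8.84e-17 and 5.26e-15), or 3.29-fold and 2.57-fold on the TPM scale. Cd14, on chromosome 18, had 308, 275 and 290.1 TPM in KO M2 and 185, 183 and 184 TPM in control M2 libraries. All lay below the M0 libraries, and the log2 fold change was -1.05 ± 0.032 in KO and -1.69 ± 0.032 in control cells (adjusted p = 2.105e-16 and 1.43e-19). There were 1.87 ± 0.21 Cd14 transcripts per Tlr4 transcript in KO M2 and 1.29 ± 0.048 in control M2 cells.

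Tlr2 (chr3:83836272-83841824, minus strand) had 159, 164 and 169 TPM in KO M2 and 163, 159 and 167 TPM in control M2 libraries. These lay below every M0 library, with log2 fold changes of -0.39 ± 0.034 in KO and -0.52 ± 0.034 in control cells (adjusted p = 2.82e-09 and 5.25e-11). Tlr6 had 20.15, 22.2 and 21.2 TPM in KO M2 and 18.3, 19.35 and 17.5 TPM in control M2 libraries. It rose by 0.80 ± 0.052 log2 units in KO and 0.58 ± 0.052 in control cells (adjusted p = 4.14e-11 and 7.56e-09). Tlr1 had 20.5, 21.6 and 21.2 TPM in KO M2 and 20.75, 17.8 and 18.8 TPM in control M2 libraries. It changed by -0.11 ± 0.057 in KO cells (adjusted p = 0.101), where M2 and M0 libraries overlapped, and fell by 0.23 log2 units in control cells (SE 0.057, adjusted p = 0.00165). Without KO M0 replicate 1 the value in KO cells was -0.16 and passed the test (adjusted p = 0.0165). Tlr1 and Tlr6 stood near parity under M2, with a ratio of 0.996 ± 0.022 in KO and 1.04 ± 0.11 in control cells, against 1.94 ± 0.14 and 1.88 ± 0.055 without stimulation.

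Of the endosomal receptors, Tlr8, Tlr9 and Tlr3 rose under M2 and Tlr7 and Tlr13 fell, in both genotypes. Tlr8 had 0.72, 1 and 0.86 TPM in KO M2 and 2.79, 2.61 and 2.74 TPM in control M2 libraries, against at most 0.15 TPM in any M0 library. Its log2 fold change was 0.85 ± 0.10 in KO and 1.71 ± 0.10 in control cells (adjusted p = 3.15e-07 and 1.11e-11). These values depend on the pseudocount: with 0.1 TPM in place of 1 TPM they were 2.87 and 3.60. Tlr8 was tested only because it reached 1 TPM in 3 or more libraries through control M2 cells, its highest group. Its tests against that group thus rest on values that let the gene into the test. Tlr9 (chr9:106222598-106226876, plus strand) had 7.82, 10.7 and 12.3 TPM in KO M2 and 11.7, 11.0 and 11.2 TPM in control M2 libraries, and rose by 0.75 ± 0.097 and 1.11 ± 0.097 log2 units (adjusted p = 1.21e-06 and 7.05e-09). The KO M2 libraries of Tlr9 were spread more widely than the control ones, and all were above the M0 libraries of their genotype. Tlr3 had 6.21, 6.37 and 7.27 TPM in KO M2 and 7.73, 7.56 and 7.71 TPM in control M2 libraries, a rise of 0.35 ± 0.063 and 0.28 ± 0.063 log2 units (adjusted p = 5.27e-05 and 0.000683). Tlr7 had 55.6, 56.1 and 59.25 TPM in KO M2 and 57.4, 47.7 and 53.9 TPM in control M2 libraries. It fell by 0.79 log2 units in KO and by 0.72 in control cells (SE 0.055 each, adjusted p = 1.27e-10 and 6.36e-10). Tlr13 had 37.1, 43.2 and 43.95 TPM in KO M2 and 37.3, 36.25 and 36.8 TPM in control M2 libraries, and fell by 0.38 and by 0.54 log2 units (SE 0.051 each, adjusted p = 1.50e-06 and 1.79e-08). No M2 library of Tlr7 or Tlr13 reached the level of an M0 library of its genotype.

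Summed by the site where their proteins act, surface and endosomal receptors differed in relative transcript level between the conditions. The 4 surface receptors, Tlr1, Tlr2, Tlr4 and Tlr6, summed to 149.6 ± 0.87 TPM in KO M1 and 162 ± 1.7 TPM in control M1 cells, to 362 ± 15 and 343.5 ± 7.9 TPM under M2, and to 297 ± 4.7 and 324 ± 7.7 TPM without stimulation. The 5 endosomal receptors summed to 324 ± 5.5 TPM in KO M1 and 361.5 ± 5.0 TPM in control M1 cells, to 116 ± 8.2 and 111 ± 6.0 TPM under M2, and to 164 ± 3.9 and 153 ± 5.2 TPM without stimulation. Endosomal receptors thus made up 68.4 ± 0.37% of the TPM of all 9 receptors in KO M1 and 69.1 ± 0.081% in control M1 cells, 24.3 ± 0.62% and 24.5 ± 0.62% under M2, and 35.5 ± 0.82% and 32.1 ± 0.24% without stimulation. Tlr3 and Tlr9 together took 61.4 ± 0.070% of the endosomal sum in KO M1 and 56.8 ± 0.72% in control M1 cells, but 6.48 ± 0.69% and 7.09 ± 0.34% without stimulation, when Tlr7 and Tlr13 made up most of it. These sums follow from the genes described above and were not tested.

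**Figure D3:**
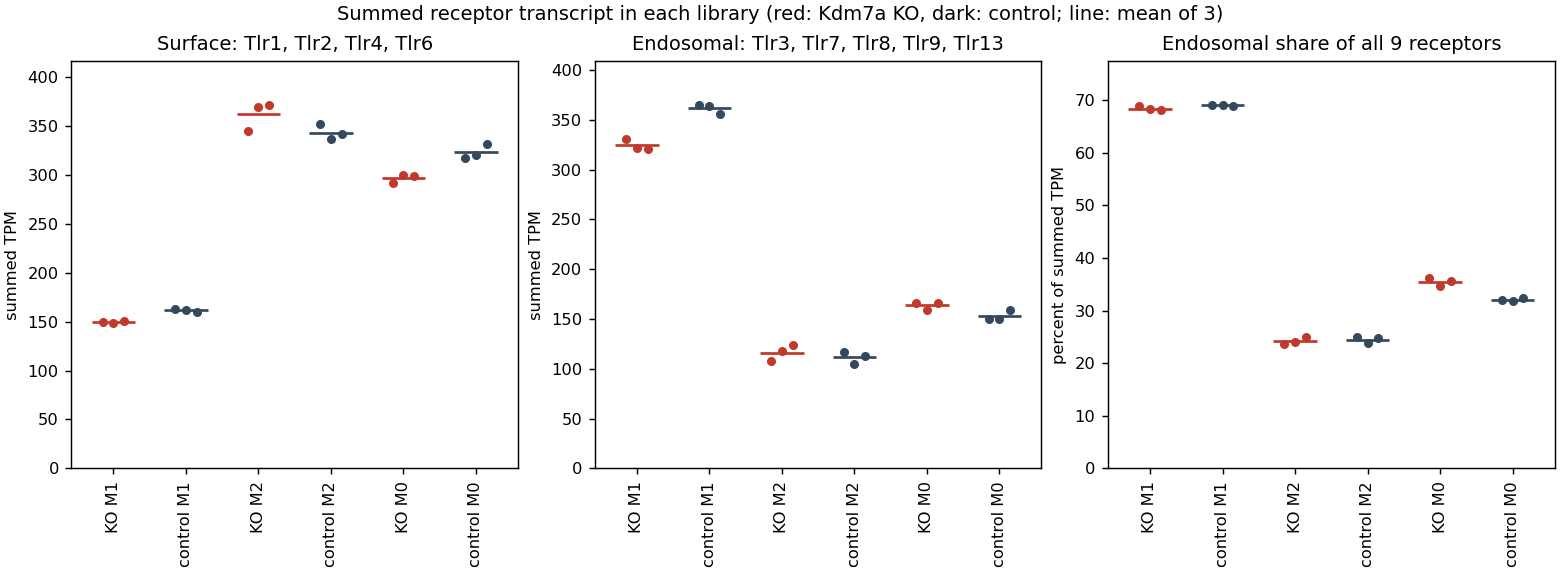
Summed TPM of surface receptors (left) and endosomal receptors (middle), and the endosomal percent of both (right), for each library of the 6 groups, with lines at the means. The M1 libraries have the lowest surface sums (149.6 ± 0.87 TPM in KO and 162 ± 1.7 TPM in control cells) and the highest endosomal percent, and the M2 libraries have the lowest endosomal percent (24.3 ± 0.62% in KO and 24.5 ± 0.62% in control cells).

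Between genotypes the largest differences in log2(TPM + 1) lay in Cd14 and Tlr8 under M2, and in Tlr4, Tlr13 and Tlr9 under M1. As a ratio of TPM, Tlr8 in KO cells stood alike under M1 and M2, at 0.3226 and 0.317 of the control mean. Under M1 its libraries were all under 1 TPM and overlapped. The markers of macrophages also differed between the genotypes: the 8 markers summed to 2671 to 2779 TPM in KO M1 against 3573 to 3706 TPM in control M1 libraries, to 3729 to 3945 against 4585 to 4743 TPM under M2, and to 4306 to 4400 against 5441 to 5598 TPM without stimulation. Of the 8, 7 were lower and Csf1r was higher in KO cells under M1 and without stimulation, and under M2 Adgre1 and Lyz2 were lower and Csf1r was higher. With either scaling 6 were lower and 1 higher under M1 and without stimulation, and 2 were lower and 2 higher under M2. Of all genes tested, 33.4% were lower under M1, 18.3% under M2 and 10.3% without stimulation. The median log2 fold change of the 8 markers was -0.25 under M1, 0.04 under M2 and -0.15 without stimulation. The part of these shifts in the differences between genotypes was not tested.

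Under M1, 2 of the 10 genes were higher and 5 lower in KO than in control cells, against 50.3% of all genes tested that differed, 16.9% higher and 33.4% lower. Tlr4 was lower, with a mean of 21.35 ± 0.94 TPM in KO against 30.7 ± 1.2 TPM in control cells and a log2 fold change of -0.51 ± 0.049 (adjusted p = 6.54e-08). Tlr13, the receptor for bacterial ribosomal RNA, was lower at 41.8 ± 2.1 against 56.2 ± 0.55 TPM, with -0.42 ± 0.051 (adjusted p = 1.21e-06). KO libraries of both genes lay below all control libraries. Tlr7 was lower at 83.5 ± 2.5 against 99.5 ± 2.4 TPM (-0.25 ± 0.055, adjusted p = 0.0007795), and Tlr3 at 132 ± 2.8 against 156.5 ± 4.2 TPM (-0.24 ± 0.063, adjusted p = 0.00380), again without overlap, as for 60.1% of all genes. In contrast, Tlr9, the receptor for DNA, was higher at 66.65 ± 1.4 TPM in KO against 49.0 ± 0.55 TPM in control cells, a ratio of 1.36 and a log2 fold change of 0.44 ± 0.097 (adjusted p = 0.000988). Cd14 was higher by a smaller factor of 1.105 (0.14 ± 0.032, adjusted p = 0.000956). These 6 calls held under every alternative tried. Tlr8 was called as lower only at the threshold (-0.25 ± 0.10, adjusted p = 0.04998, its libraries overlapping at 0.06 to 0.17 TPM in KO against 0.13 to 0.47 TPM in control cells), and the call was lost with no filter (0.0851), in a fit of the M1 groups alone (0.0949), and without control M1 replicate 1 (-0.16, adjusted p = 0.245), control M1 replicate 2 (0.117), KO M1 replicate 1 (0.134) or KO M1 replicate 3 (0.122). Tlr1, Tlr2 and Tlr6 did not pass the test, with 95% intervals of -0.15 to 0.08, -0.14 to 0.0038 and -0.07 to 0.15 log2 units. Libraries of Tlr2 still did not overlap, at 50.8 to 53.3 TPM in KO against 53.7 to 56.0 TPM in control cells.

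Under M2, 3 genes were higher and 2 lower in KO cells, against 30.9% of all genes tested that differed, 12.7% higher and 18.3% lower. Cd14 had a mean of 291 ± 16 TPM in KO against 184 ± 1.0 TPM in control cells, 1.58-fold, with a log2 fold change of 0.66 ± 0.032 (adjusted p = 8.44e-12), and its libraries were well apart, while libraries did not overlap for 41.1% of all genes. Tlr8 was lower, at 0.860 ± 0.14 TPM in KO against 2.71 ± 0.093 TPM in control cells, a ratio of 0.317, and its libraries did not overlap. Its log2 fold change was -0.9998 ± 0.10 (adjusted p = 3.03e-07), or -1.56 with a pseudocount of 0.1 TPM. Tlr8 was tested only through the control M2 libraries, where it is high, so this call is no independent support for a difference. Tlr6 was higher at 21.2 ± 1.0 against 18.4 ± 0.93 TPM (0.19 ± 0.052, adjusted p = 0.00753). These 3 calls held under every alternative tried that could test the gene. The remaining calls were less firm. Tlr13 was higher at 41.4 ± 3.7 against 36.8 ± 0.54 TPM (0.16 ± 0.051, adjusted p = 0.0203) with overlapping libraries, and was not called with no filter (0.0903), in a fit of the M2 groups alone (0.0917), or without control M2 replicate 2 (0.0643), KO M2 replicate 2 (0.101) or KO M2 replicate 3 (0.108). Tlr3 was lower at 6.62 ± 0.57 against 7.67 ± 0.093 TPM (-0.19 ± 0.063, adjusted p = 0.0295), and was not called with TMM scaling (0.0518), median-ratio scaling (0.0526), no filter (0.113), the M2 groups alone (0.102) or without any 1 of control M2 replicate 1 (0.0730), replicate 2 (0.0535) or replicate 3 (0.0697) or KO M2 replicate 1 (0.0983) or replicate 2 (0.102). Tlr4 did not pass the test (0.12 ± 0.049, adjusted p = 0.0679), but was called as higher with TMM scaling (0.16, adjusted p = 0.0136) and without control M2 replicate 1 (0.0436) or KO M2 replicate 1 (0.0140). Tlr1 likewise reached 0.17 with TMM scaling (adjusted p = 0.0209) and 0.19 without control M2 replicate 1 (0.0192), and Tlr7 was called without control M2 replicate 1 (0.16, adjusted p = 0.0364). Tlr9 was at -0.14 ± 0.097 (adjusted p = 0.290), or -0.27 (adjusted p = 0.0282) without KO M2 replicate 3 and 0.03 without KO M2 replicate 1. For Tlr2 the interval ran from -0.06 to 0.08 log2 units. Among all called genes the share that was higher in KO cells was 41% under M2 and 33.6% under M1, and with TMM scaling 56.1% and 46.1%.

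Without stimulation 1 gene was higher and 3 lower in KO cells, against 19.2% of all genes tested that differed, 8.86% higher and 10.3% lower. Tlr4 was lower at 47.35 ± 0.71 TPM in KO against 55.7 ± 3.1 TPM in control cells (-0.23 ± 0.049, adjusted p = 0.00235), in every alternative tried. Tlr3 was lower at 4.97 ± 0.64 against 6.13 ± 0.060 TPM (-0.26 ± 0.063, adjusted p = 0.00570), except in a fit of the M0 groups alone (0.0618). Tlr2 was lower at 215 ± 4.1 against 233 ± 5.2 TPM (-0.12 ± 0.034, adjusted p = 0.0191). Tlr7 was higher at 99.0 ± 4.9 against 87.9 ± 4.2 TPM (0.17 ± 0.055, adjusted p = 0.0363). All 4 genes had libraries that did not overlap between genotypes. The same held for 6 of the 10 members in all, called or not, and for 37.3% of all genes. The call of Tlr2 was lost with no filter (0.0606) and without control M0 replicate 3 (0.0888), KO M0 replicate 1 (0.0796) or KO M0 replicate 3 (0.0563), and that of Tlr7 without the mean-variance trend (0.0630), with no filter (0.171), without control M0 replicate 1 (0.0978), control M0 replicate 2 (0.141), KO M0 replicate 1 (0.125) or KO M0 replicate 3 (0.130). Leaving out KO M0 replicate 1 or 3 thus left 2 calls in place of 4. Cd14 differed little, at 604 ± 7.2 TPM in KO against 596 ± 11 TPM in control cells, with a 95% interval of -0.05 to 0.09 log2 units. Tlr9 was at 5.63 ± 0.48 against 4.69 ± 0.20 TPM and did not pass (0.22 ± 0.097, adjusted p = 0.129). Neither did Tlr8, at 0.033 ± 0.035 against 0.13 ± 0.029 TPM (-0.13 ± 0.10, adjusted p = 0.407), in the main fit or in any of 13 alternatives. Libraries of Tlr9 and of Tlr8 did not overlap between genotypes.

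**Figure D4:**
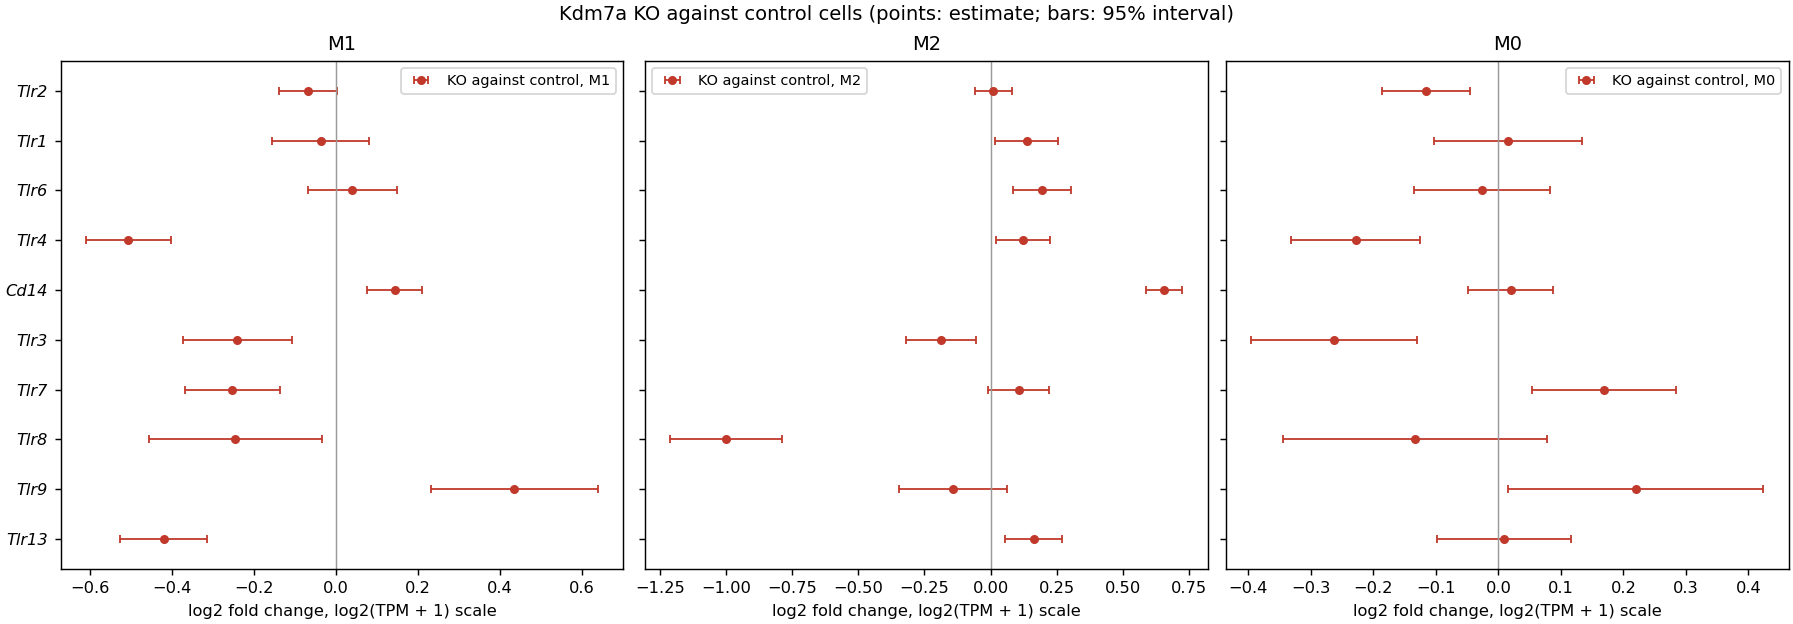
Log2 fold change of each gene in Kdm7a KO against control cells under M1 (left), M2 (middle) and without stimulation (right), with 95% intervals from limma and a separate horizontal scale in each panel. Under M1 Tlr4 and Tlr13 lie farthest left and Tlr9 farthest right, and under M2 Tlr8 lies farthest left (-0.9998) and Cd14 farthest right (0.66).

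The test of the difference between the responses of the genotypes singled out Tlr4, Tlr7, Tlr13 and Cd14 for M1 and Tlr4, Tlr8 and Cd14 for M2. For M1 the KO response was the higher in 1 member and the lower in 3, against 36.0% of all genes tested that differed, 12.1% higher and 23.9% lower. For M2 it was the higher in 2 and the lower in 1, against 14.1% of all genes, 7.06% higher and 7.05% lower. The fall of Tlr4 under M1 was larger in KO cells by 0.28 log2 units (difference -0.28 ± 0.070, adjusted p = 0.00416), and its rise under M2 was larger by 0.35 ± 0.070 (adjusted p = 0.00185). Tlr7 and Tlr13 responded lower to M1 in KO cells, by -0.42 ± 0.078 (adjusted p = 0.000315) and -0.43 ± 0.072 (adjusted p = 0.000127). The fall of Cd14 under M2 was smaller in KO cells, with a difference of 0.64 ± 0.046 (adjusted p = 1.03e-08). These 5 differences were called in every alternative. The difference of Cd14 under M1, 0.12 ± 0.046 (adjusted p = 0.0394), was not called in 10 of 20 alternatives, among them leaving out control M0 replicate 1 (0.0895) or 3 (0.0574), control M1 replicate 2 (0.0857) or 3 (0.0734), KO M0 replicate 2 (0.0781) or 3 (0.0627), and KO M1 replicate 1 (0.0691) or 3 (0.0897). With median-ratio scaling it was 0.19. On the log2(TPM + 1) scale the rise of Tlr8 under M2 was smaller in KO cells by 0.87 log2 units (difference -0.87 ± 0.14, adjusted p = 0.000321). With a pseudocount of 0.1 TPM this difference was -0.73 and did not pass (adjusted p = 0.371). Mean Tlr8 went from 0.0333 to 0.860 TPM in KO cells and from 0.133 to 2.71 TPM, 20.35-fold, in control cells. KO M0 replicate 2 was at 0, so no fold is given for KO cells. A smaller rise as a ratio of TPM is thus not shown. Tlr8 entered the test only through control M2 cells, so its difference is no independent support either. The response of Tlr6 to M2 missed the threshold (0.22 ± 0.073, adjusted p = 0.0514) and passed with either scaling (0.0165 with TMM), as well as without control M2 replicate 2 (0.0338) or KO M2 replicate 1 (0.0204). Tlr2 passed with TMM scaling (0.16, adjusted p = 0.0248), and Tlr2 and Tlr13 passed without KO M2 replicate 1 (0.15, adjusted p = 0.0304, and 0.23, adjusted p = 0.00610), and Tlr9 without KO M2 replicate 3 (-0.49, adjusted p = 0.00924). For M1, Tlr9 (0.22, adjusted p = 0.238) passed in a fit of the compared groups alone (0.0345).

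Other genes of the pathway, grouped by role, changed beside the receptors. Under M1 all 5 tested adaptor genes rose in both genotypes, with a median log2 fold change of 0.95 in KO cells (-0.43 over all genes) and 1.02 in control cells (-0.38 over all genes). A further adaptor, Sarm1, and the LPS-binding protein gene Lbp were too low to be tested. Myd88, the adaptor of most Toll-like receptors, had 179 ± 4.6 TPM in control M1 against 87.6 ± 1.5 TPM in control M0 cells (1.02). Ticam1, which encodes TRIF, the adaptor of TLR3 and TLR4, had 68.4 ± 1.3 against 17.8 ± 0.60 TPM (1.88), and Pik3ap1, which encodes the adaptor BCAP, had 209 ± 5.8 against 37.1 ± 2.2 TPM (2.46). Of the 6 negative regulators 5 rose and 1 fell in each genotype (median 1.56 in KO and 1.71 in control cells), all 6 called where 90.3% of all genes changed in KO and 89.1% in control cells, and led in control cells by Tnfaip3, which encodes the ubiquitin-editing enzyme A20, at 127 ± 2.9 against 9.66 ± 0.83 TPM (3.59). Next came Irak3, an inactive kinase that restrains the pathway, at 102 ± 0.94 against 17.0 ± 0.25 TPM (2.52). The interferon regulatory factor Irf7, which acts downstream of TLR7 and TLR9, had 2243 ± 8.1 against 20.0 ± 0.99 TPM (6.74). Of the 3 interferon regulatory factors tested, 2 rose and 1, Irf3, fell in each genotype, and the fall of Irf3 was not called with TMM scaling (0.0265 in KO cells, so with the sign turned, and -0.08 in control cells, adjusted p = 0.623 and 0.149).

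The co-receptors and chaperones were divided under M1: of 8 tested, 5 rose and 3 fell in KO cells and 4 rose and 4 fell in control cells. Ly96, which encodes MD-2, the partner of TLR4, had 95.8 ± 6.7 TPM in control M1 against 26.4 ± 2.6 TPM in control M0 cells (1.82), so that it rose while Tlr4 fell. The ratio of Ly96 to Tlr4 was 4.68 ± 0.026 in KO M1 against 0.524 ± 0.027 in KO M0 cells, and 3.115 ± 0.13 in control M1 against 0.475 ± 0.059 in control M0 cells. Cd36, a scavenger receptor that assists TLR2 with TLR6, had 143 ± 7.2 TPM in control M1 against 0.300 ± 0.13 TPM in control M0 cells (6.79). Cnpy3, a chaperone needed for folding of several Toll-like receptors, had 21.8 ± 0.22 against 63.5 ± 1.4 TPM (-1.50). Of 18 kinases and ubiquitin enzymes 10 rose and 7 fell in KO cells and 9 rose and 7 fell in control cells, a share near that of all genes (90.3% and 89.1%), with Ikbke, Irak2 and Peli1 rising most in control cells (2.68, 2.45 and 1.99). With TMM scaling 12 rose and 5 fell in each genotype. Apart from Irf3, all 12 pathway genes given with values for M1 in control cells kept their direction and their call in every alternative.

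Under M2, where 72.9% of all genes changed in KO and 65.4% in control cells, 4 of 5 adaptors rose and none fell in each genotype, with a median of 0.54 in KO cells (-0.09 over all genes) and 0.37 in control cells (-0.05 over all genes), led in control cells by Ticam1 at 30.9 ± 0.65 against 17.8 ± 0.60 TPM (0.76) and Myd88 at 125 ± 5.1 against 87.6 ± 1.5 TPM (0.51). Of 8 co-receptors and chaperones 3 rose and 4 fell in KO cells, and 1 rose and 4 fell in control cells. The 1 that rose in control cells was Cd36, at 32.4 ± 2.5 against 0.300 ± 0.13 TPM (4.68), and the 4 that fell included Slc15a4, a transporter of the endosome (-0.53), and Unc93b1, which carries endosomal receptors (-0.33). Of the 18 kinases and ubiquitin enzymes 6 rose and 8 fell in KO cells and 5 rose and 6 fell in control cells (9 and 4 with TMM scaling), among them Irak4, the kinase that MyD88 recruits first (0.67 in control cells), and Ikbke (-0.86). Among the interferon regulatory factors Irf5 rose (0.63) and Irf3 fell (-0.18, adjusted p = 0.00358) in control cells, the call of Irf3 being lost with TMM scaling (adjusted p = 0.0553). Negative regulators were split in both genotypes, with 2 of 6 higher and 3 lower.

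**Figure D5:**
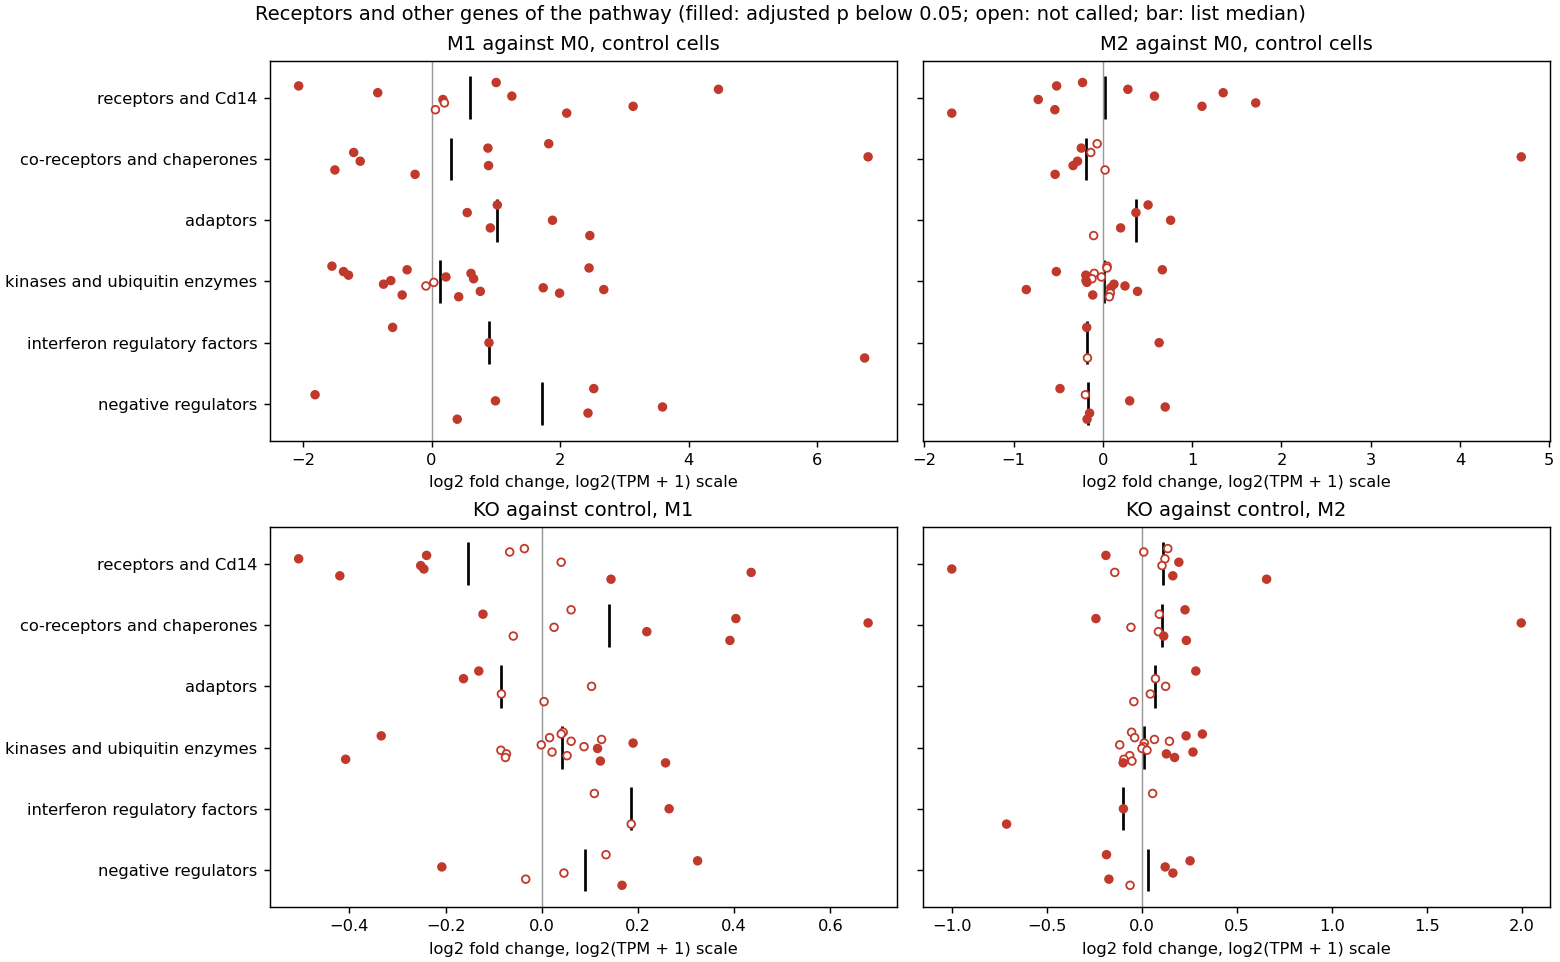
Log2 fold changes of the 10 receptor genes and of 5 lists of other pathway genes, as points (filled where the adjusted p was below 0.05) with the median of each list as a bar, for the M1 and M2 responses of control cells (top) and for KO against control cells under M1 and M2 (bottom). All 5 adaptors lie right of 0 under M1 in control cells, and Cd36, at 2.00, is the gene farthest right for KO against control cells under M2.

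Between genotypes, Cd36 differed most. It had 132 ± 5.7 TPM in KO M2 against 32.4 ± 2.5 TPM in control M2 cells (log2 fold change 2.00, adjusted p = 2.30e-14), and 229 ± 9.5 TPM in KO M1 against 143 ± 7.2 TPM in control M1 cells (0.68, adjusted p = 7.54e-08). In all, 4 co-receptors and chaperones of 8 were higher and 1 lower in KO cells in each of M1 and M2 (medians 0.14 and 0.10, against -0.06 and -0.03 over all genes). With TMM scaling 5 were higher and none lower under M1, and 6 higher and 1 lower under M2. Without stimulation 3 co-receptors and chaperones were higher and 1 lower. For these counts and those that follow, the share of all genes that differed was 50.3% under M1, 30.9% under M2 and 19.2% without stimulation. Of the 18 kinases and ubiquitin enzymes, 4 were higher and 2 lower under M1 (8 and 2 with TMM scaling), 5 higher and 1 lower under M2 (6 and none with TMM scaling), and 1 higher without stimulation. Of the 6 negative regulators, 2 were higher and 1 lower under M1, 3 higher and 2 lower under M2, and 1 higher and 1 lower without stimulation. Of the 5 adaptors, 2 were lower under M1 (1 higher and none lower with TMM scaling), 1 was higher under M2, and none was called without stimulation. Among the 3 interferon regulatory factors, Irf5 alone was higher under M1 (0.26), and all 3 were with TMM scaling. For M2, 2 of these factors were lower (1 with TMM scaling), and without stimulation none was called. Under M1 Ly86, the partner of the receptor homologue CD180, was higher (0.40) and the kinase gene Irak4 was lower, at 12.9 ± 0.44 against 16.5 ± 0.14 TPM (-0.33), as was Peli1, a ubiquitin ligase (-0.41). Under M2 Irak4 was higher, at 41.5 ± 2.0 against 35.15 ± 0.93 TPM (0.23), and so was Myd88, at 152 ± 3.8 against 125 ± 5.1 TPM (0.28), whereas Irf7 was lower, at 10.4 ± 1.2 against 17.7 ± 2.2 TPM (-0.71). Ly86, higher under M1, was lower under M2 (-0.24, adjusted p = 0.00604). The difference between genotypes in the M2 response of Cd36 was 1.14 (adjusted p = 7.50e-08), but with a pseudocount of 0.1 TPM it was 0.13 and did not pass (adjusted p = 0.754). Cd36 stood at 1.34 ± 0.081 TPM in KO M0 and 0.300 ± 0.13 TPM in control M0 cells. The difference in the response of Irak4 was -0.32 for M1 and 0.24 for M2 (adjusted p = 0.000395 and 0.0107). Without stimulation the chaperone gene Hsp90b1, which encodes GRP94, was lower in KO cells, at 1400.0 ± 57 against 1900.0 ± 46 TPM (-0.44, adjusted p = 5.98e-09), and Unc93b1 was higher, at 242 ± 4.0 against 197 ± 5.1 TPM (0.29, adjusted p = 2.12e-06). Apart from that of Cd36 in the M2 response, the calls of the pathway genes named so far in this paragraph were kept in every alternative tried. The adaptors Tirap and Myd88 were lower in KO cells under M1 (-0.16 and -0.13) as deposited, but not called with TMM scaling (-0.11 and -0.07). Nor were they called with median-ratio scaling (adjusted p = 0.111 and 0.139). Of 14 alternatives, Tirap lost its call in 4 and Myd88 in 2.

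The genes whose levels followed each receptor most closely over the 18 libraries were none of the other members or listed pathway genes. Closeness was taken as the Pearson correlation of log2(TPM + 1) with the tested genes, unnamed gene models left out. Tlr3 was most like Mdm2 (r = 0.9992), which encodes a ubiquitin ligase of p53, and Hilpda (0.9988). Tlr2 was most like Dhx15 (0.9987) and Nup160 (0.9986), Tlr9 like Mapk3 (0.9955) and Cd47 (0.9951), and Tlr4 like Ski (0.9952) and Cnr2 (0.9942). Tlr6 was most like Rhoc (0.9947), Tlr1 like Ptk2b (0.9936) and Cd14 like Stap1 (0.992). Tlr13 and Tlr7, with weaker responses, had lower best values, 0.9792 with Txnrd1 and 0.9752 with Dusp6. The libraries share their 6 groups, and most genes change between these groups, so these values describe the shared pattern over groups only. Tlr8, with a mean under 5 TPM in every group, was left out.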

How the data were processed

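mRNA was measured by sequencing in 18 libraries of RAW264.7 cells, 3 in each of 6 groups taken from the sample titles. The authors deposited 1 table of TPM values for 24411 gene symbols, with 2 decimals, in which all libraries sum to the same total within 1 TPM. Trim Galore (read trimming) and the mouse build mm10 appear, per the submitters' processing notes, without versions. Which aligner, quantifier and annotation were used, and whether strand was, is not given in the sources used here. TPM keeps no read depth, so no counting error can be given, and a gene at 0 is only listed at 0. TPM is relative to all other transcripts of a library, so a large change in abundant genes shifts the rest.

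From these values log2(TPM + 1) was computed for 11548 genes that reached 1 TPM in 3 or more libraries. All 9 comparisons were fitted together with limma 3.58.1 (R 4.3.3) over the 6 groups, with a robust mean-variance trend and Benjamini-Hochberg adjustment over all genes tested within a comparison. A gene was called at an adjusted p below 0.05. Means are given ± SD and fold changes ± SE. All 10 members are named, and from each pathway list at most the 3 called genes with the largest change among those with a mean of 5 TPM or more. For the pattern over libraries, the 2 genes with the highest correlation were taken for each member with a mean of 5 TPM or more in any group. Unnamed gene models were left out of this search. The members and lists were chosen with earlier results of these data known. Alternatives were TMM and median-ratio scaling of the TPM values, no trend, no filter, a 5 TPM filter, a pseudocount of 0.1 TPM, the replicate number as a block, a fit limited to the pair of groups compared, and leaving out each library in turn. TMM trimmed 30% of log ratios and 5% of levels at each end. Promoter sequences and the start and end of each gene are from RefSeq on GRCm38.p6, which is the mm10 assembly. Chromosome, strand, exons and overlapping genes are from the GENCODE annotation of that build.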

Additional observations from a re-analysis of the deposited data

Results flagged for a closer look

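In 7 results the response to stimulation differed between Kdm7a KO and control cells by limma's test of the difference itself, given here as the KO response minus the control response in log2 units. Under M1 these were Tlr4 at -0.28 (adjusted p = 0.00416), Tlr7 at -0.42 (adjusted p = 0.000315), Tlr13 at -0.43 (adjusted p = 0.000127) and Cd14 at 0.12 (adjusted p = 0.0394). Under M2 they were Tlr4 at 0.35 (adjusted p = 0.00185), Tlr8 at -0.87 (adjusted p = 0.000321) and Cd14 at 0.64 (adjusted p = 1.03e-08). Of all genes tested, 36.0% differed in this way for M1 and 14.1% for M2, so the count for M1 is near the share of all genes. Tlr4 was the single receptor that passed for both stimulations, with opposite signs. The difference for Cd14 had the same sign in both, but under M1 it was not called in 10 of 20 alternatives. That of Tlr8 under M2 did not pass with a pseudocount of 0.1 TPM (adjusted p = 0.371), and Tlr8 was tested only through control M2 cells. As a ratio of TPM, a smaller rise of Tlr8 in KO cells is not shown. Both tests share the M0 libraries.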

How the results depend on the processing

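Over 1371 alternative values for the members, 1282 kept both the direction and the side of the threshold, 43 lost the call, 29 gained it and 17 changed sign, 9 of them with 1 library left out. For the named pathway genes, 1530 of 1612 alternatives left the result as it was, 81 lost the call and 1 changed sign. Tlr8 could not be tested with the 5 TPM filter. Among calls, the sign changed only with scaling and only in the M1 response of KO cells: Tlr7 was at 0.34 with TMM and 0.29 with median ratios in place of -0.24, Tlr13 at 0.21 and 0.16 in place of -0.37, and Irf3 at 0.0265 with TMM in place of -0.55. Among values not called, Tlr1 was at 0.0194 and 0.0275 in place of -0.04 for KO against control cells under M1, and at 0.0015 and 0.0137 in place of -0.05 for the difference of M1 responses. With 1 library left out, values that were not called crossed 0 for KO against control cells in Tlr1 (-0.0333 to 0.0742) and Tlr13 (-0.0133 to 0.026) without stimulation, in Tlr6 under M1 (-0.0083 to 0.0726), in Tlr2 (-0.0135 to 0.0335) and Tlr9 (-0.2711 to 0.0252) under M2, and for the difference of M1 responses in Tlr3 (-0.0233 to 0.1098).

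With no filter, 2 members in place of 4 and 1474 genes in place of 2217 were called for KO against control cells without stimulation, 3 members in place of 5 under M2, and 870 genes in place of 1629 for the difference of M2 responses. A fit of the compared groups alone gave 3 members under M2. Either scaling gave 5 members in place of 3 for the difference of M2 responses. With 1 library left out, the members called numbered 2 to 4 without stimulation, 6 to 7 under M1 and 3 to 7 under M2 for KO against control cells, and 3 to 4 (M1) and 3 to 6 (M2) for the difference of responses. The lowest counts came without KO M0 replicate 1 or 3 and without control M2 replicate 2 or KO M2 replicate 2, and the count of 6 without KO M2 replicate 1. Why the counts moved was not tested. The share of higher genes among all called under M1 was 35.4% in KO and 36.1% in control cells, and 52.1% and 52.8% with TMM. For the difference of responses it was 33.6% (M1) and 50% (M2), and 45.6% and 62.8% with TMM.

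Replicate numbers recur in every group, and the labels do not say that a number marks a shared culture or day. Deviations of same-numbered libraries from their group means had correlations of -0.159 to 0.15 (median 0.018) over 45 pairs, 7 of them over 0.1, against a median of -0.011 for other numbers. As a hint from the data only, 11 of 18 libraries, but not every one, were closest to their own number. The numbers were not taken as pairs. With the replicate block, 1 of 90 member results changed its call, Tlr8 for KO against control cells under M1 (-0.25, adjusted p = 0.0594).

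With 3 libraries a group and unknown depth, small differences of low genes such as Tlr8 are the least certain.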
